A study of Rattus norvegicus with 24 samples.

Results

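The genes described here are nuclear-encoded genes of oxidative phosphorylation, most of them subunits, measured in whole rat brain after repeated exposure to an inhaled anaesthetic. A gene was a member when a probe set carried exactly 1 gene symbol and that symbol began with Nduf, Sdh, Uqcr, Atp5 or Cox followed by a digit, or was Cycs or Cyc1, and each gene was represented by its probe set of highest mean signal. This gave 56 genes of the 4736 with a single-symbol probe set. By symbol, 26 belong to complex I, 1 to complex II (Sdha), 4 to complex III, 13 to complex IV, 10 to complex V, and 2 are assembly factors (Ndufaf3 and Sdhaf2). No cytochrome c probe set carried a single symbol, and 7 probe sets that matched the rule but listed several symbols were not used. Cox6c-ps1 is annotated as a pseudogene and could share signal with Cox6c. Ndufa4, known as a subunit of complex IV, is counted in complex I by its symbol, and Cox7a2l in complex IV by its own. All 56 members passed the filter on low signals, which required a signal above 16.5 on at least 3 of 24 arrays.

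The arrays came from 5 groups of whole brain total RNA. The 12 controls breathed halothane for 3 min before immediate perfusion with ice-cold saline, so they were not free of the agent, and no sham exposure of matched length is described for them. The 4 exposed groups, each with 3 arrays, received 90 min exposures, 2 per day with 3 h of recovery between them. Halothane was given at 0.8% and isoflurane at 1.0%. Each agent was given either 5 times, in a course of 2.5 days, or 10 times, in a course of 5 days. Comparisons between the agents match the number of exposures while their concentrations differ, and the longer series also differs from the shorter in days. Strain, sex, age and the interval from the last exposure to tissue collection are not given in the sources used here. Nothing in the labels says that replicates are separate animals, so p-values here reflect only how much these samples vary, and that variation may be technical.

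Oxidative phosphorylation couples the oxidation of nutrients to ATP synthesis at the inner mitochondrial membrane. Complexes I and II pass electrons to ubiquinone, complex III passes them on to cytochrome c and complex IV to oxygen, while complexes I, III and IV pump protons that drive ATP synthesis by complex V. Neurons depend heavily on this pathway, and volatile anaesthetics are known to inhibit complex I activity in isolated mitochondria. Transcript levels, which are what these arrays measured, are not enzyme activity.

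Transcription factors such as nuclear respiratory factor 1 (NRF1), ETS-family factors, YY1 and oestrogen-related receptors (ERR) are known to bind promoters of many of these genes. To show what the members' promoters share, RefSeq windows (build GRCr8) from 250 bases before to 50 after each gene's start were searched for 1 fixed string per factor on both strands. A window was found for 47 of the 56 members. The YY1 string AAGATGGC lay in 11 of 47 members' windows (23.4%) and in 3.17% of all 33469 windows. The members that held it were Ndufa3, Ndufa4l2, Ndufa6, Ndufa9, Ndufb8, Ndufs4, Ndufs6, Ndufs7, Cox8a, Atp5pf and Atp5po, which made 8 of the 24 complex I windows. In 10 of the 11 it began within 30 bases of the start. That was 21.3% of the members' windows, beside 1.56% of all windows. Among windows that held the string it was 90.9% of the members' and 49.1% of all. The ETS string CCGGAAGT lay in 4 members' windows (8.51%, against 3.81% of all), the NRF1 string GCATGCGC in 2 (4.26% against 2.47%) and the ERR string TCAAGGTC in 1 (2.13% against 1.08%). The median GC content was 56% in the members' windows and 51.7% in all windows, a difference that these shares do not take into account. A string match is a description of the letters and not a measured binding site, and AAGATGGC contains ATG, so that it can also span a start codon.

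The 60 bases around the start of 6 members are printed because they show the YY1 string within 30 bases of the start in 3 different complexes. Each runs 5′ to 3′ on the gene's strand, the minus strand for all 6, from 30 bases before to 30 after the start, with matched strings in capitals. In Cox8a both capitals are reverse complements, first of the ETS string and then of the YY1 string, and the 2 matches do not overlap.
Ndufa6 (chr7:115750288-115750347): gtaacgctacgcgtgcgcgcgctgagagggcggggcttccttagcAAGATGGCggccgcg
Ndufb8 (chr1:253362907-253362966): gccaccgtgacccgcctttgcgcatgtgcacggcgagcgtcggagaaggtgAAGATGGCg
Ndufs4 (chr2:47794885-47794944): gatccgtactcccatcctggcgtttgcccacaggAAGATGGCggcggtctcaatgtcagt
Ndufs7 (chr7:10110469-10110528): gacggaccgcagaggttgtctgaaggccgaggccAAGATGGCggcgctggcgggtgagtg
Atp5po (chr11:44657454-44657513): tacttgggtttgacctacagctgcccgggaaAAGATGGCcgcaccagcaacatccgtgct
Cox8a (chr1:213833594-213833653): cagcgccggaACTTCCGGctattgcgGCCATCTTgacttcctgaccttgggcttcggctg

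The 24 arrays had trimmed mean signals of 150.1 to 150.2, and correlations between arrays were 0.944 to 0.983. Markers of neurons, astrocytes and oligodendrocytes were clearly measured in every group, with summed control signals of 6282 to 8210 over 7 neuronal genes. Bacterial spike-in probe sets (BioB, BioC, BioDn and CreX) report added RNA and not brain transcripts. They separated the arrays into 9 with a high and 15 with a low level. The high level was found on 5 controls and on replicate 3 of each exposed group, so it was nearly balanced over the groups. In bulk tissue, fewer cells of a type and less RNA per cell cannot be told apart.

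Signals of the members were high for this array. The probe sets of 52 of the 56 members were among the 2463 brightest of the 7389 probe sets tested, and 53 had a mean above the table's median. Control signals ranged by probe set from 78.6 ± 13.6 (SD, n = 12) for Ndufs1, the largest core subunit of complex I, to 1886 ± 179 for Ndufb8 within complex I, from 571.6 ± 97.5 for Uqcrc2 to 1597 ± 197 for Uqcr11 within complex III, from 30.2 ± 8.14 for Cox5a to 3523 ± 686 for Cox8a within complex IV, and from 605.4 ± 128 for Atp5pf to 2413 ± 189 for Atp5f1b, the catalytic beta subunit, within complex V. The 3 members nearest the floor were all of complex IV: Cox5a, which was above the floor on 22 of 24 arrays, Cox8b (41.5 ± 24.4) and the pseudogene Cox6c-ps1 (54.5 ± 20.0). Probe sets differ in how strongly they hybridise, so these signals do not rank the transcripts. The control coefficient of variation was 7.54% for Atp5f1a, the alpha subunit of the F1 part of complex V, 50.6% for Cox6c, a small structural subunit of complex IV, and 58.7% for the dim Cox8b, which were the lowest and the 2 highest values of the 56 members.

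No member passed an adjusted p of 0.05 (limma, Benjamini-Hochberg over 7389 probe sets) in any comparison with control. Few probe sets of any kind passed: 0.0135% for 5 halothane exposures, 0.0406% for 10 halothane exposures, and 0% for 5 isoflurane exposures, 10 isoflurane exposures and the mean of the 4 exposed groups. The precision sets what could have been seen. The median 95% interval of a member's log2 fold change reached 0.26 to either side with 3 arrays against 12 controls. The whole interval lay within a 1.5-fold change in either direction for 45 of 56 members after 5 and after 10 halothane exposures, and for 48 of 56 after 5 and after 10 isoflurane exposures. It lay within a 2-fold change for 54, 54, 55 and 53 members in that order. The widest interval was that of Cox8b, a muscle isoform of complex IV with a control signal of 41.5 ± 24.4 (SD, n = 12). For most members, then, a change beyond 1.5-fold lay outside the interval. For a member of median precision, an estimate smaller than 0.26 in size had an interval that included no change.

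**Figure D1:**
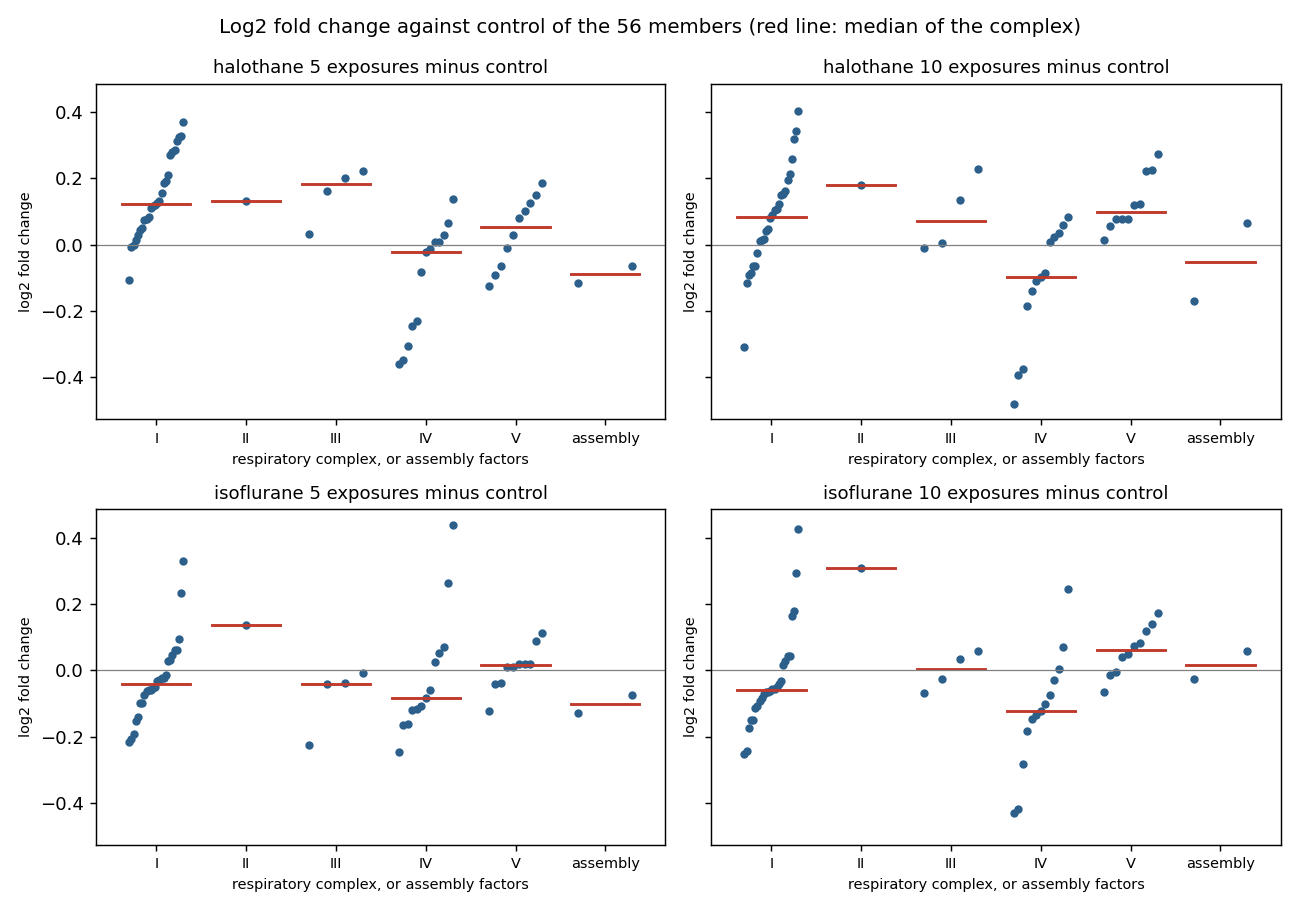
Log2 fold change against control (vertical axis) of each of the 56 members, grouped by respiratory complex (horizontal axis), 1 panel per exposed group; each point is a member and the red line is the complex's median. Complex I medians are 0.12 and 0.08 after 5 and 10 halothane exposures and -0.04 and -0.06 after 5 and 10 isoflurane exposures, and no point passed the adjusted threshold.

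Complex I holds most of the members. After 5 halothane exposures 23 of its 26 members were on the higher side of control, with a median log2 fold change of 0.12, and after 10 exposures 19 of 26 with a median of 0.08. After isoflurane 8 of 26 were on the higher side at either exposure number, with medians of -0.04 after 5 and -0.06 after 10 exposures. Over all 7389 probe sets the medians were -0.01 and -0.03 after 5 and 10 halothane exposures, and 0.01 and 0.00 after isoflurane. Over the 2463 brightest probe sets the 4 medians ran from -0.002 to 0.009. These 4 comparisons share the 12 controls, so their medians are not independent of each other. The median after 10 halothane exposures depended on the arrays used: it was 0.16 on arrays of the low spike-in level, -0.10 on those of the high level, and 0.00 without replicate 2 of that group. For 5 isoflurane exposures the corresponding values were 0.05 and -0.18, whereas for 5 halothane exposures they were 0.15 and 0.07, and for 10 isoflurane exposures -0.02 and -0.09.

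Ndufc2, an accessory subunit of the membrane arm of complex I, had the lowest p of any member in 2 of the 5 comparisons with control. Its signals were 517.8 to 766.3 over the 12 controls with a median of 673, and 895.9, 766.5 and 904.2 after 10 halothane exposures. All 3 exposed arrays were above every control, the lowest by a margin of less than 1 signal unit. The log2 fold change was 0.40 ± 0.12 (SE) with an adjusted p of 0.292 (limma), which did not pass. After 10 isoflurane exposures the signals were 866.1, 678.9 and 841.9, of which 2 were above all controls, and the log2 difference was 0.29 with an adjusted p of 0.434 (limma). Signals after 5 exposures lay largely within the control range, at 800.3, 729.6 and 709 for halothane and 596.6, 670 and 760.8 for isoflurane. Averaged over the 4 exposed groups, Ndufc2 differed by 0.24 ± 0.07 (SE), with a limma adjusted p of 0.361. On the low and high spike-in levels apart, the difference after 10 halothane exposures was 0.47 and 0.33.

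Ndufb5, another accessory subunit of the membrane arm, lay on the other side of control after isoflurane. Its control signals were 525 to 700.7 with a median of 613.4, and the 3 arrays after 10 isoflurane exposures read 502.3, 498 and 524.4. All 3 were below every control, the highest of them by less than 1 signal unit. The log2 fold change was -0.25 ± 0.08 (SE) with an adjusted p of 0.37 (limma), which did not pass, and it was -0.27 and -0.22 on the low and high spike-in levels. A dimmer probe set of the same gene gave -0.12. After 5 isoflurane exposures the signals were 555.9, 559.9 and 519.2, after 5 halothane exposures 617, 616.1 and 639, and after 10 halothane exposures 520.2, 631.9 and 556. The halothane groups overlapped the controls.

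Among the other complex I members with an unadjusted p under 0.05 against control, Ndufb9 and Ndufab1, the mitochondrial acyl carrier protein, had higher values after 5 halothane exposures. Ndufb9 read 1842.8, 1581.1 and 1582.6 against 1197 to 1791.8 in controls, with a median of 1369. Ndufab1 read 802.5, 755.5 and 827.2 against 468.8 to 858.2, with a median of 663.1. Both groups overlapped the controls, the log2 fold changes were 0.28 ± 0.10 and 0.28 ± 0.12 (SE), and the adjusted p was 1 for both (limma). Ndufb11, a membrane arm subunit, read 500.6, 388.4 and 465.5 after 10 isoflurane exposures against 180.8 to 425.4 in controls, a log2 difference of 0.42 ± 0.18 (SE, limma adjusted p = 0.489). Its estimate was between 0.32 and 0.42 in all 4 exposed groups, with 0.35 for their mean (limma adjusted p = 0.375). Control 2 had the lowest Ndufb11 signal, and without that array the mean difference was 0.27. In that average, Ndufb6 (0.27), Ndufb5 (-0.11) and Ndufa4l2 (-0.21) also had unadjusted p-values under 0.05, with a limma adjusted p of 0.582 for each. Ndufa4l2 is a hypoxia-inducible relative of Ndufa4, and its 5 probe sets disagreed in sign (0.13, 0.12, -0.11, -0.23 and -0.21 for the mean of the exposed groups), so no direction is given for it.

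Counted over all complexes, 2 of 56 members had an unadjusted p under 0.05 after 5 halothane exposures, where 3.53% of all probe sets did, and 2 of 56 after 10, where 7.52% did. After 5 isoflurane exposures it was 0 of 56 beside 2.14%, after 10 isoflurane exposures 5 of 56 beside 9.05%, and for the mean of the exposed groups 6 of 56 beside 8.44%. The members' shares were near or under those of all probe sets, and slightly above for the mean of the exposed groups. The 3 members of lowest p after 5 isoflurane exposures were Uqcr11 (-0.22), Ndufb11 (0.33) and Ndufb5 (-0.15). Exposed arrays did not overlap the controls for 0 members after 5 halothane exposures (0.352% of all probe sets), 2 after 10 (1.12%), 0 after 5 isoflurane exposures (0.23%) and 1 after 10 (0.92%). The 3 members concerned were Ndufc2 and Atp5f1a after halothane and Ndufb5 after isoflurane.

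Complex II was represented by Sdha, the flavoprotein subunit of succinate dehydrogenase, which also acts in the citric acid cycle. Control signals ran from 387.2 to 611.5 with a median of 513.6, and the 3 arrays after 10 isoflurane exposures read 671.2, 654.5 and 572.9. Of these arrays 2 were above every control and 1 was within their range. The log2 fold change was 0.31 ± 0.11 (SE), with a limma adjusted p of 0.385, and 0.36 and 0.19 on the low and high spike-in levels. After 10 halothane exposures Sdha read 677, 569.2 and 498.9, after 5 halothane exposures 601.7, 603.8 and 480, and after 5 isoflurane exposures 560.6, 584.9 and 536.1. All 4 estimates were above 0, at 0.13 and 0.18 after 5 and 10 halothane exposures and 0.14 after 5 isoflurane exposures, and their mean of 0.19 had a limma adjusted p of 0.449. The arrays of the high spike-in level gave -0.07 and -0.01 for the halothane groups.

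**Figure D2:**
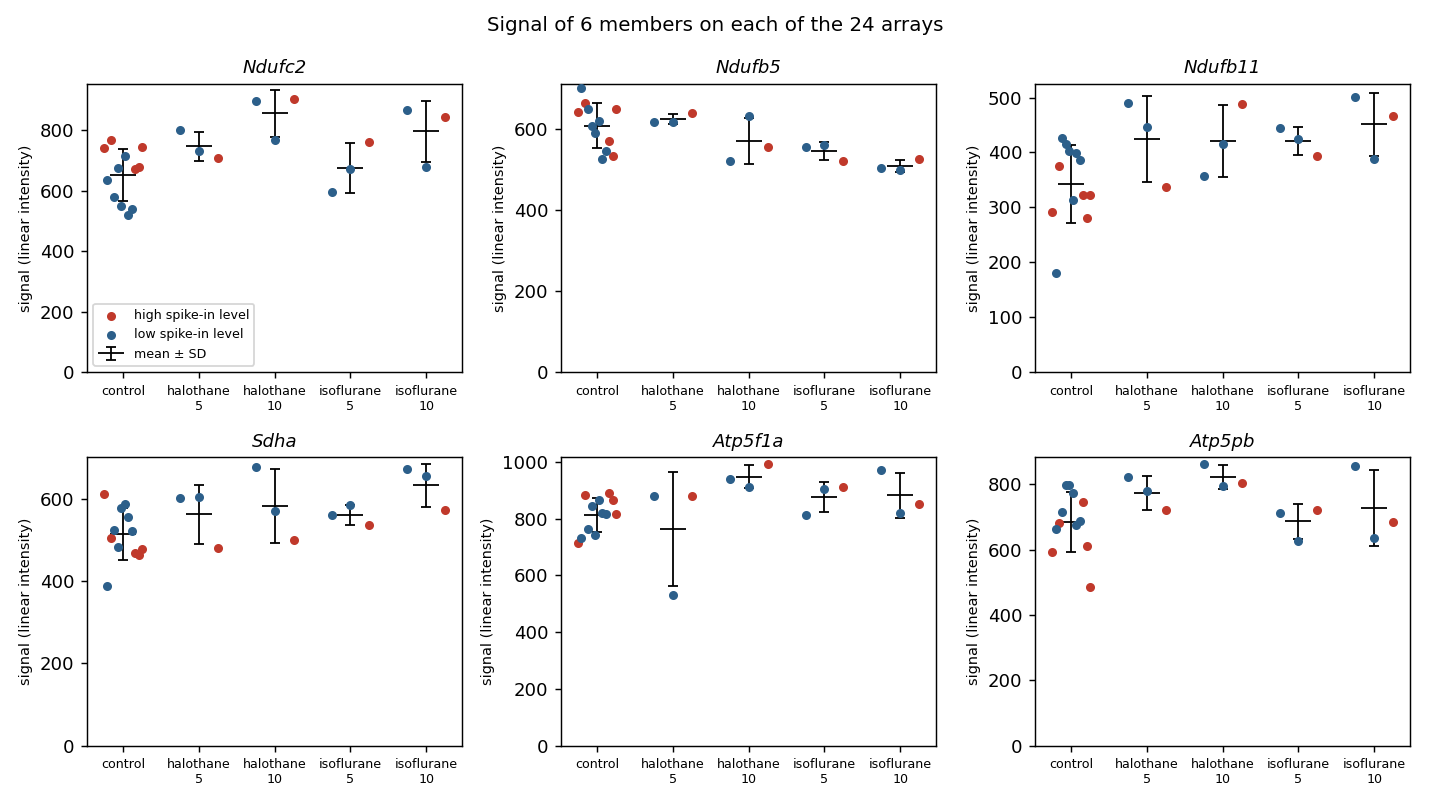
Deposited signal (vertical axis, linear intensity from 0) of 6 members on each array, by group (horizontal axis); points are arrays coloured by spike-in level, and the bar and whiskers are the mean ± SD of a group (n = 12 controls, n = 3 otherwise). Ndufc2 and Atp5f1a after 10 halothane exposures lie above the 12 controls and Ndufb5 after 10 isoflurane exposures lies below them.

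Complex III, which passes electrons from ubiquinol to cytochrome c, had 4 members: Cyc1 (cytochrome c1), Uqcrfs1 (the Rieske iron-sulfur protein), Uqcrc2 (a core protein) and Uqcr11 (a small subunit). After 5 halothane exposures all 4 estimates were positive, between 0.03 and 0.22, and after 5 isoflurane exposures all 4 were negative, between -0.22 and -0.01. After 10 exposures the signs were mixed, with 3 of 4 positive for halothane (median 0.07) and 2 of 4 for isoflurane (median 0.005). Cyc1 read 1109.5, 1086.4 and 1112.7 after 5 halothane exposures and 801.7 to 1159.2 with a median of 959 in controls, so that the exposed arrays were in the upper part of the control range. Uqcr11 read 1409.6, 1291.5 and 1376.7 after 5 isoflurane exposures, with controls from 1334 to 1947, and 1509.1, 1753.3 and 2118 after 5 halothane exposures. The 3 arrays of the isoflurane group were all below the 3 of the halothane group. The share of all probe sets with such a separation between the agents was not counted. After 10 exposures Uqcr11 read 1570.4, 1565.7 and 1645 with halothane and 1813.7, 1253.7 and 1661.6 with isoflurane, and the groups overlapped. None of these differences passed the adjusted threshold (limma).

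Complex IV reduces oxygen and was the only one of the 3 large sets of members whose median was below 0 in all 4 exposed groups, at -0.02 and -0.10 after 5 and 10 halothane exposures and -0.08 and -0.12 after 5 and 10 isoflurane exposures. The medians changed sign for both halothane groups when only arrays of the low spike-in level were used, to 0.04 each. Cox4i1, the widely expressed isoform of subunit 4, read 2726.8 to 4086.1 in controls with a median of 3350. Its 4 estimates ran from -0.12 to 0.02, and every exposed array was inside the control range. Cox6b1, which faces the intermembrane space, had an estimate of -0.36 after 5 halothane exposures (limma adjusted p = 1) that rested on 1 array, with signals of 1848.1, 738.2 and 1784.2 against 1408.8 to 2174.5 in controls. A dimmer Cox6b1 probe set gave 0.10.

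The isoforms of subunits 6a and 8 include forms that are characteristic of heart and skeletal muscle. Cox6a1, the general form, had estimates between -0.15 and 0.06. Cox6a2, the muscle form, was at -0.39 after 10 halothane exposures and -0.42 after 10 isoflurane exposures (limma adjusted p = 0.67 and 0.546). In both groups replicate 3 was far below the others: the signals were 191.5, 202.7 and 117.6 with halothane and 186, 225.6 and 103.2 with isoflurane, against 160.3 to 268 in controls. On all arrays, a dimmer Cox6a2 probe set gave -0.39 and -0.30. Without replicate 3 the differences of the brighter probe set were -0.15 and -0.09. Those replicates were the ones of the high spike-in level, which also held controls between 184.3 and 234.7. Of 11 skeletal and cardiac muscle markers, 8 passed the filter on low signals, and their summed signal was 405.3 to 604.1 in controls, 431.3 to 549.3 after 10 halothane exposures and 431.8 to 608.9 after 10 isoflurane exposures. Actc1, Tnni2 and Des, which mark muscle, stayed under the floor of 16.5 on every array. Cox8a, the general form of subunit 8, had estimates of 0.01 and -0.14 after 5 and 10 halothane exposures and -0.25 and -0.18 after 5 and 10 isoflurane exposures, and all 4 of its probe sets were on the lower side in the mean of the exposed groups (-0.16 to -0.07).

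Complex V had positive estimates for all 10 members after 10 halothane exposures, with a median of 0.10, and for 7 of 10 after 10 isoflurane exposures, with a median of 0.06. Of all probe sets, 43.7% and 49.5% were higher in these comparisons, and of the 2463 brightest 49.7% and 49.6%. After 10 halothane exposures all 6 oligodendrocyte and myelin markers were on the lower side of control, with a median of -0.24. Their summed signal was 7911 to 10760 against 8351 to 11990 in controls. All 5 endothelial, 7 of 8 muscle and 5 of 6 pituitary markers were also lower (medians -0.13, -0.08 and -0.16). Higher were 5 of 6 astrocyte, 4 of 5 microglial, 5 of 5 choroid plexus and 3 of 7 neuronal markers (medians 0.08, 0.05, 0.42 and -0.005). The part of these markers in the values of complexes I and V was not tested. On the low spike-in level the complex V medians after 10 halothane and 10 isoflurane exposures were 0.18 and 0.09. On the high level they were 0.03 and -0.09. Atp5f1a, the alpha subunit, read 938.8, 912 and 992.3 after 10 halothane exposures, and all 3 arrays were above the controls, which ran from 714.2 to 890.3. The log2 fold change was 0.23 ± 0.11 (SE), with a limma adjusted p of 0.67, and 0.22 and 0.26 on the low and high spike-in levels. After 5 halothane exposures Atp5f1a read 879.6, 530.7 and 878, so that 1 array fell far below the rest. After isoflurane it read 814, 905.1 and 910 with 5 exposures and 972, 819.1 and 852.9 with 10. Atp5pb, subunit b of the peripheral stalk, read 863.8, 796.3 and 804.7 after 10 halothane exposures and 484.8 to 798.6 in controls, a difference of 0.27 ± 0.12 (SE, limma adjusted p = 0.618) in which 2 of 3 arrays were above all controls. Atp5f1b had control signals of 2102.4 to 2660.3 and read 2594.2, 2596.6 and 2322.7 after 10 halothane exposures, all within that range. Atp5if1, the inhibitor of ATP hydrolysis by complex V, read 499.1 to 849.8 in controls and 563.1 to 822.2 after 10 halothane exposures.

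The agents were compared directly at each number of exposures. The log2 differences involve no control array and the 5-exposure and 10-exposure differences have no array in common, while SEs and p-values use the spread over all 24 arrays. No member passed the adjusted threshold in either comparison (limma), where 0.0135% of all probe sets passed at 5 exposures and 0% at 10. At 5 exposures, 43 of 56 members were on the higher side with halothane, with a median of 0.11, beside 46.6% of all probe sets and a median of -0.01. At 10 exposures it was again 43 of 56, with a median of 0.08, beside 45.6% and a median of -0.02. Of the 2463 brightest probe sets, 49.4% at 5 and 51.7% at 10 exposures were higher with halothane, with medians of -0.002 and 0.006. In complex I it was 25 of 26 at 5 exposures (median 0.16) and 21 of 26 at 10 exposures (median 0.11), and in complex III all 4 at both. Members on the higher side with halothane in both comparisons numbered 36 of 56 (64.3%), against 23.5% of all probe sets, and 21 of 26 in complex I. Complex IV was mixed, with 6 of 13 at 5 exposures and 9 of 13 at 10. Members are measured on the same arrays and are not independent, so these counts describe the arrays and carry no p-value. The medians were 0.08 and 0.17 on the low and high spike-in levels at 5 exposures and 0.12 and 0.03 at 10.

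Markers of other cell types were compared between the agents in the same way, and none passed the adjusted threshold (limma). At 10 exposures all 6 oligodendrocyte and myelin genes were on the lower side with halothane, with a median of -0.24, and their summed signal was 7911 to 10760 with halothane and 9498 to 11710 with isoflurane. At 5 exposures 4 of 6 were lower, with a median of -0.05, and in the average over both exposure numbers 6 of 6 were, with a median of -0.13. All 5 choroid plexus genes were lower with halothane at 5 exposures, with a median of -0.30, and Ttr (transthyretin), abundant in choroid plexus, was at -1.01 ± 0.25 (SE, limma adjusted p = 1). Their summed signal was 2406 to 4725 after 5 halothane and 4887 to 7036 after 5 isoflurane exposures. At 10 exposures all 5 were higher with halothane, with a median of 0.13. The 4 blood genes were lower with halothane in 4 of 4 cases at 5 exposures (median -0.15) and in 3 of 4 at 10 (median -0.05). All 6 pituitary genes were lower with halothane at 5 exposures (median -0.23) and 5 of 6 at 10 (median -0.11). Of 7 neuronal genes, 4 were higher with halothane at 5 exposures and 3 at 10 (medians 0.01 and -0.11), and of 6 astrocyte genes 3 at both (medians -0.05 and 0.04). Of 5 microglial genes, 3 were higher with halothane at both exposure numbers (medians 0.21 and 0.31). Among them Itgam and Csf1r had control means of 12.5 and 14.3, under the floor of 16.5. Of 5 endothelial genes 2 were higher at 5 exposures and 1 at 10 (medians -0.02 and -0.14), and of 8 muscle genes 4 and 1 (medians -0.16 and -0.10). The part of all these markers in the members' differences between the agents was not tested.

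**Figure D3:**
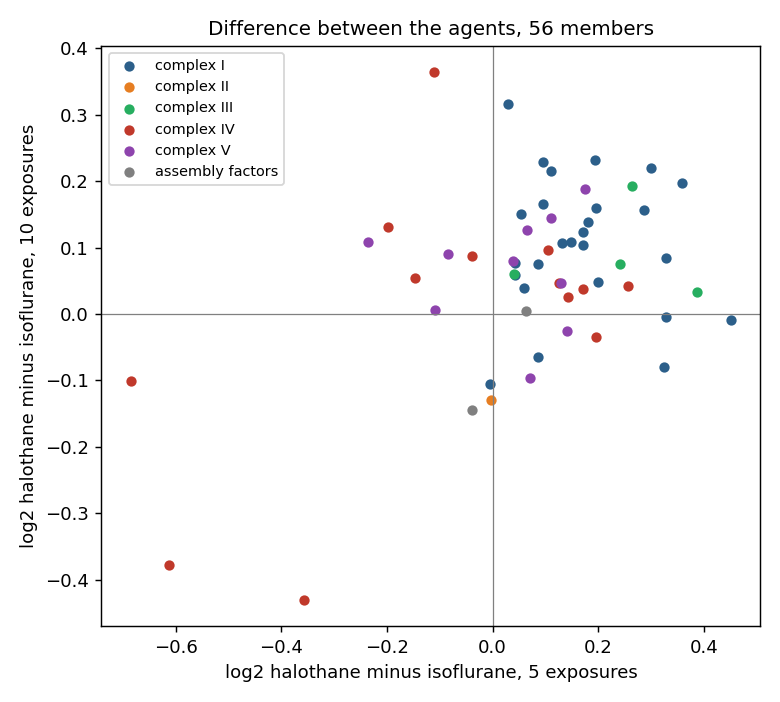
Log2 signal after halothane minus isoflurane for each of the 56 members at 5 exposures (horizontal axis) and 10 exposures (vertical axis), coloured by complex. Of the 56 points, 36 are in the upper right quadrant, including 21 of the 26 complex I members.

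Ndufb9, Uqcr11 and Ndufab1 had the lowest p at 5 exposures, at 0.36 ± 0.13, 0.39 ± 0.15 and 0.30 ± 0.15 (SE), with a limma adjusted p of 1 for each. Ndufb8, Ndufb5 and Ndufs1 had the lowest at 10 exposures, at 0.23 ± 0.11, 0.16 ± 0.11 and 0.32 ± 0.21 (SE), again with an adjusted p of 1 (limma). Ndufb8 read 2030.4, 2124.5 and 1813 after 10 halothane exposures and 1772.8, 1631.4 and 1680 after 10 isoflurane exposures. These groups did not overlap, while controls ran from 1623.9 to 2221.4 across both. At 5 exposures the arrays of the agents were separated in the same way for Ndufb9 and Ndufab1. The share of all probe sets with such a separation between 3 and 3 arrays was not counted. Unadjusted p-values under 0.05 were found for 2 of 56 members at 5 exposures, where 2.98% of all probe sets had one, and for 1 of 56 at 10, where 3.11% had one. In an average over both exposure numbers, a comparison added after the data were seen, 45 of 56 members were on the higher side with halothane, 4 of 56 had an unadjusted p under 0.05 beside 3.92% of all probe sets, and 0 passed the adjusted threshold (0% of all, limma). Those 4 were Ndufb9 (0.28), Ndufab1 (0.26), Ndufb5 (0.18) and Ndufb8 (0.16), all of complex I. The median over complex I in that average was 0.14.

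Over all members, differences between 10 and 5 exposures of the same agent were centred on 0, while the complexes differed. In complex I 10 of 26 members were higher after 10 exposures with halothane and 7 of 26 with isoflurane (medians -0.03 and -0.02). In complex V it was 7 and 9 of 10 (medians 0.09 and 0.05), and in complex IV 6 and 5 of 13 (medians -0.10 and -0.04). Of all probe sets, 45.6% and 47.8% were higher. The members' median was -0.01 with halothane and 0.00 with isoflurane, with 26 and 27 of 56 on the higher side after 10 exposures, and the median 95% interval of a member reached 0.33 to either side. With halothane, Atp5f1a (0.35 ± 0.14), Ndufa9 (-0.35 ± 0.20) and Ndufv2 (-0.43 ± 0.26, SE) had the lowest p, with a limma adjusted p of 1 for each. The Atp5f1a estimate included the array that read 530.7. With isoflurane the lowest were Ndufc2 (0.23), Uqcr11 (0.20) and Sdha (0.17), also at an adjusted p of 1 (limma). The adjusted threshold was passed by 0 members in both, beside 0.0135% of all probe sets with halothane and 0% with isoflurane. Unadjusted p-values under 0.05 were found for 1 and 0 members beside 3.76% and 3% of all probe sets. For the interaction of agent and exposure number no member passed (0% of all probe sets, limma), 0 had an unadjusted p under 0.05 (2% of all), and the lowest p belonged to Atp5f1a (0.34), Uqcr11 (-0.35) and Cox5b (-0.23).

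Over all 24 arrays, the largest estimate of any member in the comparisons described here was between the arrays of the high and the low spike-in level. With the 5 groups in the model, a comparison added after the data were seen, 17 of 56 members (30.4%) differed between the high and the low level at an adjusted p under 0.05 (limma), beside 20% of all probe sets. Of these, 13 were higher and 4 lower on the arrays of the high level, beside 567 higher and 909 lower over all probe sets. Cox6c was 1.03 ± 0.16 (SE) higher, with a limma adjusted p of 7.15e-05. It read 158.7 to 339.7 with a median of 269 on the 9 high arrays and 87 to 264 with a median of 126.8 on the 15 low ones, and replicate 3 had the highest Cox6c signal in each exposed group. Ndufa4, named for complex I but known as a subunit of complex IV, was 0.36 lower on the high level (limma adjusted p = 0.000196), where it read 965 to 1373.7 with a median of 1172.2, against 1265.7 to 1769.8 with a median of 1510.9. Ndufaf3 (0.37), Ndufv3 (0.33), Ndufa8 (0.35), Cox8a (0.33) and Cox4i1 (0.23) were also higher on the high level, and Cox6a2 (-0.42) and Ndufs4 (-0.20) lower. Ndufc2 was higher there by 0.19 (limma adjusted p = 0.0418), a smaller difference than its estimate after 10 halothane exposures.

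**Figure D4:**
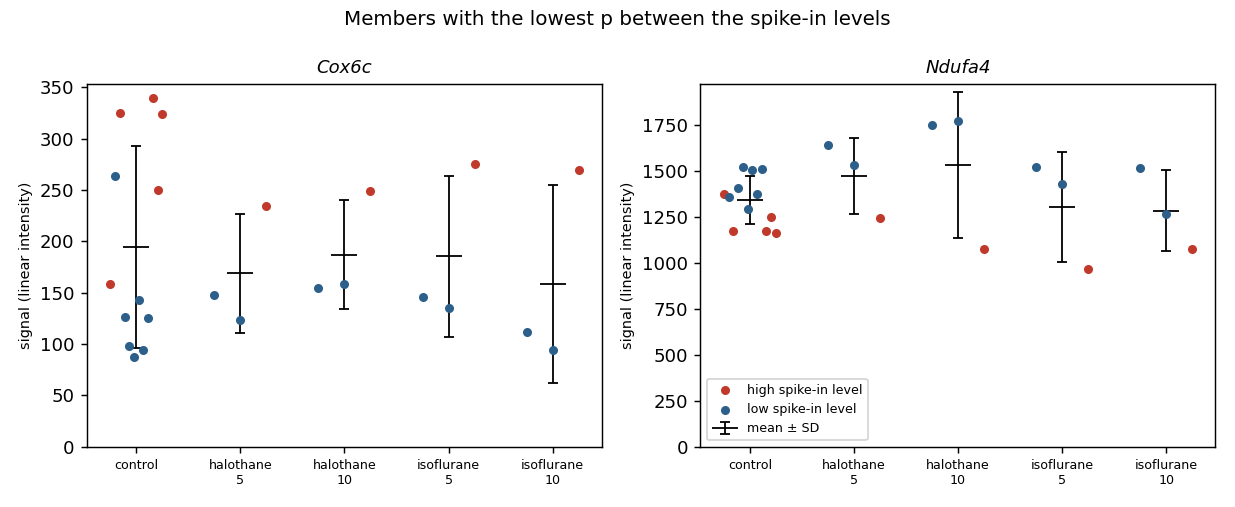
Deposited signal (vertical axis, linear intensity from 0) of Cox6c and Ndufa4 on each array, by group (horizontal axis), with arrays of the high spike-in level in red and of the low level in blue; bar and whiskers are the mean ± SD (n = 12 controls, n = 3 otherwise). In each exposed group the high-level array has the highest Cox6c and the lowest Ndufa4 signal.

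Genes that feed or build the respiratory chain were read from 4 further lists, and 0 of their genes passed the adjusted threshold in any comparison with control (limma). Of 20 citric acid cycle and pyruvate entry genes tested, 16 were on the higher side after 10 halothane exposures and 15 after 10 isoflurane exposures, with medians of 0.12 and 0.11. Of all probe sets, 43.7% and 49.5% were higher in these comparisons. After 5 exposures it was 17 of 20 with halothane and 13 of 20 with isoflurane, with medians of 0.06 and 0.05. The shares of all probe sets there were 48.1% and 51.5%. Idh3g, a subunit of the NAD-dependent isocitrate dehydrogenase, was at 0.42 ± 0.11 (SE) after 10 halothane exposures (limma adjusted p = 0.227) and 0.27 after 10 isoflurane exposures (limma adjusted p = 0.459). Mdh2, mitochondrial malate dehydrogenase, was at 0.18 and 0.23 in the same groups (limma adjusted p = 0.626 and 0.377). The 8 genes for mitochondrial biogenesis, dynamics and assembly had medians of 0.12 and 0.20 after 5 and 10 halothane exposures and 0.01 and 0.11 after 5 and 10 isoflurane exposures. Among them Mfn2, a mediator of mitochondrial fusion, was at 0.24 ± 0.08 (SE) after 10 isoflurane exposures (limma adjusted p = 0.35). Opa1 and Immt, of the inner membrane, were at 0.82 and 0.57 after 10 halothane exposures (limma adjusted p = 0.656 and 0.618) from control means of 15.9 and 20.9, near the floor of 16.5, where fold changes depend on that floor. The 19 carriers, pores and uncouplers had medians of 0.01 and 0.07 after 10 halothane and 10 isoflurane exposures, and the 7 antioxidant genes -0.03 and -0.04.

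Markers of blood and choroid plexus were read beside the members, and none passed the adjusted threshold against control in any exposed group (limma). The 4 blood genes include haemoglobin beta (Hbb) and the erythroid enzyme Alas2. All 4 were on the lower side after 5 and 10 halothane and after 10 isoflurane exposures, with medians of -0.22, -0.70 and -0.63. Hbb was at -0.91 after 10 halothane and -0.95 after 10 isoflurane exposures (limma adjusted p = 0.482 and 0.371). After 5 isoflurane exposures 2 of the 4 blood genes were lower. Their summed signal was 543.2 to 996.1 in controls, 437.2 to 470.2 after 10 halothane exposures and 388.1 to 658.9 after 10 isoflurane exposures. The 4 blood genes summed to 445.2 to 1011 after 5 halothane and 623 to 685.7 after 5 isoflurane exposures. The 5 choroid plexus genes summed to 3452 to 5472 in controls, 2406 to 4725 and 4775 to 7520 after 5 and 10 halothane exposures, and 4887 to 7036 and 4832 to 6258 after 5 and 10 isoflurane exposures. Their part in the members' values against control was not tested.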

How the data were processed

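The authors deposited 1 intensity per probe set and array for 8799 probe sets on a linear scale. The sources used here do not name the software or the scaling, and trimmed means of 150.1 to 150.2 on all arrays show that the deposited values had been scaled to a common level. Values were raised to a floor of 16.5, the 25th percentile of the table, before taking log2, which understates changes of dim genes. After 59 control probe sets were left out, the 7389 above that floor on at least 3 arrays were tested. Groups were taken from the sample titles. A linear model with the 5 groups was fitted to all 24 arrays in limma 3.58.1 (R 4.3.3), with variances moderated by eBayes along the intensity trend and two-sided tests, and p-values were adjusted over the 7389 probe sets (Benjamini-Hochberg). The script was tested on simulated data. For arrays, their number limits the precision, and no detection calls were used.

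The members and the lists were chosen with earlier results of these data known, so no list was tested as a set. Named members are those with an unadjusted p under 0.05 against control or, where fewer, the 3 of lowest p, the 3 of lowest p in each other comparison, the members with the highest and lowest control signal of a complex, and isoform pairs. From further lists up to 3 genes of lowest p were named. Members named for other reasons, such as those of the spike-in level, Cyc1 and Ndufs4, were chosen with their values in view. Symbols came from the platform annotation. Replicate numbers recur across groups, but no label ties them to an animal or a batch, and they were not taken as pairing. Alternatives were floors at the 10th and 40th percentile, median centring or quantile normalization, no filter and a strict filter, no trend, array weights, only the groups compared, controls 10 to 12 left out, the spike-in level as a block or 1 level alone, the replicate block, all probe sets of a gene, and each array left out.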

Additional observations from a re-analysis of the deposited data

How the results depend on the processing

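Under 39 other settings, 428 recounts of the members past the adjusted threshold over the 11 comparisons gave 0 in all (limma). With the replicate number as a block, which keeps only controls 1 to 3, the members' median log2 fold change was -0.0315 after 10 halothane exposures (main value 0.0575) and -0.12 after 5 isoflurane exposures (main value -0.0381). Controls 1 to 3 without the replicate block gave the same values, -0.0315 and -0.12. With each of the numbers 1 to 3 once in every group, the block cannot change a group difference. The equal values therefore do not test the block. Samples with the same number tended to deviate together: 22 of 30 pairs from different groups had correlations above 0.1 (median 0.165, range -0.0482 to 0.52, against a median of -0.128 for different numbers), and 13 of 15 samples correlated best with their own number. Not every pair passed 0.1, and replicate 3 was the array of the high spike-in level in each exposed group, so this is a hint from the data and not the design. On the low spike-in level alone the median after 10 halothane exposures was 0.138. On the high level alone, with 1 array per exposed group, it was -0.0799 after 10 halothane exposures, -0.14 after 5 isoflurane exposures, -0.127 for 10 against 5 halothane exposures and -0.204 for the interaction. With each array left out in turn, the median ranged from -0.049 to 0.0758 for 10 against 5 isoflurane exposures (highest without replicate 2 of the 10-exposure group), from 0.0164 to 0.0703 after 10 halothane exposures, from 0.0388 to 0.103 after 5 halothane exposures, from -0.0619 to -0.0158 after 5 isoflurane exposures and from -0.0653 to 0.00285 after 10 isoflurane exposures. The medians of the agent comparisons stayed positive under every setting run, at 0.0557 to 0.17 for 5 exposures and 0.0338 to 0.129 for 10. For a median, other values moved by less than the spread between replicates. The cause of these shifts was not tested. Only the groups compared, as a setting, has no separate value for the mean of the 4 exposed groups, which uses all groups. With 3 arrays per exposed group, log2 differences from control under 0.26 were not resolved for a member of median precision.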
